A study of Mus musculus with 24 samples.

Results

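Lcn2 and a group of acute-phase proteins that cells secrete were followed in cultured mouse muscle cells treated with the mineralocorticoid hormone aldosterone. The 8 genes were chosen by their symbols in the count table, which lists 56748 genes: the secreted lipocalin Lcn2, the secreted protease inhibitor Serpina3n and its intracellular relative Serpina3g, serum amyloid Saa3, complement C3, the pentraxin Ptx3, haptoglobin Hp and the transcription factor Cebpb. Bulk RNA was sequenced from myotubes, the multinucleate cells that form when muscle precursors fuse, and from muscle fibroblasts. The 24 libraries form 8 groups of 3. Cells came from hindlimb muscle of mice under 5 days old, either C57BL/10-Dmdmdx (mdx), in which the dystrophin gene Dmd is mutated, or C57BL/10 (C57). mdx and C57 myotubes were exposed for 48 h to 1 µM aldosterone, or to 0.001% DMSO as vehicle, the horse serum being charcoal-stripped. All myotubes then received fresh medium for 15 h, which was collected, and the myotubes were lysed. mdx and C57 fibroblasts were grown for 24 h in the medium of aldosterone-treated or vehicle-treated myotubes of their own genotype. The genotype of a fibroblast and of the myotubes that made its medium therefore cannot be told apart, and hormone carried over in the medium was not measured. Nothing in the sources used here says that the numbered replicates came from separate animals, so p-values measure the spread between these cultures.

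The acute-phase response is the rise of certain plasma proteins during inflammation. The liver makes most of them, but macrophages, fibroblasts and other tissue cells make several locally. Interleukin-6 acts through the factor STAT3, and interleukin-1 and tumour necrosis factor act through NF-kappaB, while the C/EBP factors, Cebpb among them, bind the promoters of many acute-phase genes. Steroid receptors bind DNA too, and the mineralocorticoid receptor (Nr3c2) and the glucocorticoid receptor (Nr3c1) recognise the same sequence. Lcn2 binds iron-carrying siderophores and is known in heart and vessels as a target of aldosterone. In mouse, Serpina3n belongs to a cluster of closely related protease inhibitors that corresponds to a single human gene.

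Myotube libraries held 14133165 to 31144746 counts and fibroblast libraries 16964960 to 42698139. Levels are given as CPM, the usual depth-scaled count, after TMM scaling of the library totals. The summed level of 12 myotube markers was 26109 to 44905 CPM in myotubes and 16.2 to 168 CPM in fibroblasts. The summed level of 10 fibroblast markers was 324 to 4636 CPM in myotubes and 15622 to 27782 CPM in fibroblasts, with Tcf21 at 0 in both. The myotube libraries thus also hold RNA of fibroblast markers, most of it from the collagen genes Col1a1, Col1a2 and Col3a1. Another of these markers, Lum, was at 0 to 4.64 CPM in myotubes and 185 to 320 CPM in fibroblasts. Which cells made this RNA in the myotube cultures was not tested. Dmd averaged 44.2 ± 10.5 CPM in mdx vehicle myotubes and 392 ± 47.9 CPM in C57 vehicle myotubes (SD, n = 3 each). In bulk libraries, fewer cells of a type and less RNA per cell cannot be told apart.

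The start regions of the genes are shown because C/EBP, STAT, NF-kappaB and steroid receptor sites near a start are textbook routes to these genes. RefSeq windows from 250 bases before to 50 bases after the start were at hand for 7 of the 8 genes, all but Hp, on build GRCm38.p6, which differs from the build of the counts (mm39). Motifs were searched on both strands and are in capitals: the C/EBP type TTNNGNAA, the STAT type TTCNNNGAA, the steroid receptor inverted repeat (GNACA and TGTNC with 3 bases between them), its half-site AGAACA, and the kappaB motif. Of 32841 windows of this length, 40.7% held the C/EBP type, 8.3% the STAT type, 0.475% the inverted repeat, 19.0% the half-site and 8.46% the kappaB motif. The 4 windows below belong to Lcn2, Serpina3n, C3 and Ptx3. Each of them holds a match, while the Cebpb window, which is not among them, holds none. The Lcn2 window lies at chr2:32387690-32387989 and the C3 window at chr17:57228087-57228386, both on the minus strand. The Serpina3n window lies at chr12:104406458-104406757 and the Ptx3 window at chr3:66219637-66219936, both on the plus strand.
Lcn2: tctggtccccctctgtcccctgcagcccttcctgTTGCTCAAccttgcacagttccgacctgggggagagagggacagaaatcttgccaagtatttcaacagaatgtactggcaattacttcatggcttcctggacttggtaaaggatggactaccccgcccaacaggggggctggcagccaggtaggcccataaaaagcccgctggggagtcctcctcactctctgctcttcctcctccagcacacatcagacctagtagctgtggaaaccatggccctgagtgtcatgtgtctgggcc
Serpina3n: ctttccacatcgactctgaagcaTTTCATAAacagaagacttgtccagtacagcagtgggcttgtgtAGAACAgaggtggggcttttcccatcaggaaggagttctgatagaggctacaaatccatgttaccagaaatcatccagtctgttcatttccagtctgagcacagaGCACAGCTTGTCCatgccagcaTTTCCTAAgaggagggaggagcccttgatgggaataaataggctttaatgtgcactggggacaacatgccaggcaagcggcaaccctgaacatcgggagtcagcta
C3: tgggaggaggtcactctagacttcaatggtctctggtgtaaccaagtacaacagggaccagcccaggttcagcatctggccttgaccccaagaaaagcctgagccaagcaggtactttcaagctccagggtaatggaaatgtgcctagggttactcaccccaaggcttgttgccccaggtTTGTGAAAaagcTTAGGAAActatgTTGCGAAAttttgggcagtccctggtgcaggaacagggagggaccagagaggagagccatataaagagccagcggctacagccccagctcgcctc
Ptx3: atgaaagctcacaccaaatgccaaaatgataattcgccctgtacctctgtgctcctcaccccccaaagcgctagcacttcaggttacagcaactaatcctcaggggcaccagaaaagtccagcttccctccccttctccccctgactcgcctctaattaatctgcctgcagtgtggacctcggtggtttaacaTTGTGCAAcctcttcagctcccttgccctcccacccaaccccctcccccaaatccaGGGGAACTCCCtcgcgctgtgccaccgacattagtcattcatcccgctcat
Positions count from the start, negative before it. The Lcn2 window holds 1 C/EBP-type match, at -216. The Serpina3n window holds 2, at -227 and -56, with a half-site at -183 and the rare inverted repeat, GCACAGCTTGTCC, at -78. The C3 window holds 3 C/EBP-type matches within a short stretch, at -70, -58 and -45. The Ptx3 window holds 1 C/EBP-type match at -57 and 2 overlapping kappaB matches at the start itself, at -1 and 1. Of the windows not shown, Saa3 holds 4 C/EBP-type matches and Serpina3g holds 3, one of them overlapping a kappaB match, together with a STAT-type match at -33. The Cebpb window holds none of these letters. A match describes the letters only.

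Lcn2 was close to silent in vehicle-treated myotubes and was read in every aldosterone-treated culture. Lcn2, ENSMUSG00000026822, lies on chromosome 2 from 32274645 to 32278264 on the minus strand (mm39). It had 0.588, 0.836 and 0.306 CPM in mdx aldosterone myotubes, replicates 1 to 3, against 0.0339, 0 and 0 CPM in mdx vehicle myotubes. It had 0.267, 2.33 and 1.36 CPM in C57 aldosterone myotubes, against 0 CPM in each of the 3 C57 vehicle libraries. The groups do not overlap in either genotype, and all 6 cultures were higher with aldosterone. The whole signal was small: 27 reads against 1 in mdx, a ratio of 32.0 with an exact 95% counting interval of 5.28 to 1310, and 95 reads against 0 in C57, at least 30.8-fold against a floor of 3 counts over the group. Such intervals and floors cover counting error only.

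Lcn2 rose in the mean of both genotypes (adjusted p = 0.0326 by the quasi-likelihood test of edgeR, Benjamini-Hochberg over all genes tested). It was the 1 member called among the 6 that passed the filter on low counts, where 0.216% of all genes tested were called. With 122 reads in aldosterone libraries against 1 under vehicle, Lcn2 passed that filter only through the treatment where it is high. The share over all genes is therefore not a matched background for its calls, with or without the block described next. Same-numbered myotube cultures deviate together, and with the culture as a block Lcn2 passed in the mean (adjusted p = 1.23e-06), in C57 (1.06e-05) and in mdx (0.00565). Without the block no member was called in C57, where 0.0127% of genes were, or in mdx, where 0% were. In each genotype 2 members, Lcn2 and Serpina3n, had an unadjusted p under 0.05, against 783 genes in C57 and 542 in mdx, and DESeq2 called 2 members in C57 and 0 in mdx. With the block, 3 members were called in the mean (8.96% of genes), 2 in C57 (4.98%) and 1 in mdx (2.33%). DESeq2 gave Lcn2 an adjusted p of 4.72e-06 in the mean without the block; with the block it returned no adjusted p for Lcn2, and its 3 calls in the mean were Serpina3n, C3 and Cebpb. The unblocked call for Lcn2 held without C57 aldosterone replicate 1 or mdx aldosterone replicate 3 and was lost without any other single library (12 omissions, adjusted p 0.0149 to 0.106), and the blocked call held in 6 of 6 culture omissions (3.18e-07 to 4.89e-05), though in mdx alone it was lost without mdx culture 2 (0.118). The aldosterone effect did not pass as different between mdx and C57 for any of the 6 members (0% of genes with edgeR, 152 at an unadjusted p under 0.05 with 0 members among them, 0 with DESeq2; 0.0444% with the block).

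**Figure D1:**
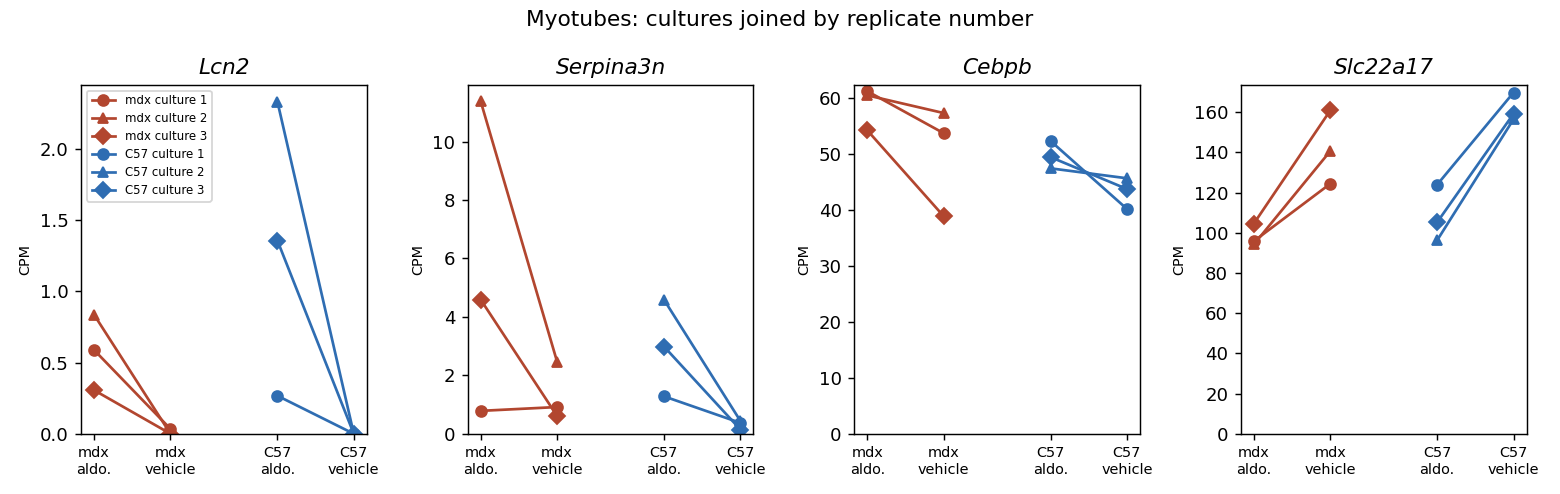
Levels of Lcn2, Serpina3n, Cebpb and the Lcn2 receptor gene Slc22a17 in myotubes (CPM, linear axes), with aldosterone at the left and vehicle at the right of each genotype and lines joining cultures of the same replicate number. Lcn2 and Cebpb are higher with aldosterone in all 6 cultures, Serpina3n in 5 of 6, and Slc22a17 is lower in all 6.

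Summed markers of other cell types were set beside it. The sum of 10 fibroblast markers was 1154, 4636 and 2220 CPM in mdx aldosterone myotubes, against 1347, 4376 and 1547 CPM in mdx vehicle myotubes. It was 398, 686 and 822 CPM in C57 aldosterone myotubes, against 324, 1076 and 753 CPM in C57 vehicle myotubes. The sum of 12 macrophage markers was 4.51, 221 and 13.8 CPM in mdx aldosterone myotubes, against 4.41, 44.6 and 17.8 CPM in mdx vehicle myotubes. It was 12.9, 412 and 235 CPM in C57 aldosterone myotubes, against 14.8, 519 and 302 CPM in C57 vehicle myotubes. The 3 aldosterone libraries with the highest macrophage sums also held the 3 highest Lcn2 levels, while C57 vehicle culture 2, with the highest sum of all 12, and C57 vehicle culture 3, with the third, held no Lcn2 reads. The sum of 12 neutrophil markers was 1.05, 2.06 and 0.673 CPM in mdx aldosterone myotubes, against 0.339, 0.898 and 0.687 CPM in mdx vehicle myotubes. It was 1.28, 3.97 and 2.44 CPM in C57 aldosterone myotubes, against 0.513, 2.88 and 1.89 CPM in C57 vehicle myotubes, so that 5 of 6 cultures were higher with aldosterone. Of these 12 markers Elane, Ltf, Mpo, Cxcr2 and Retnlg were at 0 in all 12 myotube libraries. Mmp8 was read in all 12 (up to 0.961 CPM), Csf3r reached 2.34 CPM, and Ly6g, Camp and Ngp were read in 1 to 4 libraries each at no more than 0.131 CPM. S100a9 was read in aldosterone libraries only, at 0.107, 0.0778 and 0.0905 CPM in C57 and at 0.0612 CPM in mdx replicate 3. S100a8, a calcium-binding alarmin of myeloid cells, had 0.196, 0.578 and 0.184 CPM in mdx aldosterone myotubes, against 0.0339, 0 and 0.0764 CPM in mdx vehicle myotubes. It had 0.214, 1.56 and 0.905 CPM in C57 aldosterone myotubes, against 0.0467, 0.0339 and 0.0727 CPM in C57 vehicle myotubes. Like Lcn2, S100a8 passed the filter on low counts only through the treatment where it is high, so its tests are not given. The sum of 6 adipocyte markers, nearly all of it Fabp4, a fatty acid carrier also made by endothelial cells and macrophages, was 1.5, 3.53 and 5.14 CPM in mdx aldosterone myotubes, against 1.08, 1.20 and 0.840 CPM in mdx vehicle myotubes. It was 2.08, 10.5 and 6.24 CPM in C57 aldosterone myotubes, against 1.45, 5.80 and 4.14 CPM in C57 vehicle myotubes, so that all 6 cultures were higher with aldosterone, as for Lcn2. Cidec was at 0 in all 12 myotube libraries, and Adipoq, Lep and Retn were each read in 1. The sum of 6 endothelial markers was 29.5, 56.6 and 67.3 CPM in mdx aldosterone myotubes, against 29.9, 34.6 and 40.2 CPM in mdx vehicle myotubes. It was 106, 233 and 149 CPM in C57 aldosterone myotubes, against 78.1, 174 and 136 CPM in C57 vehicle myotubes, higher with aldosterone in 5 of 6 cultures. The part of any of these cells in the Lcn2 result was not tested.

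**Figure D2:**
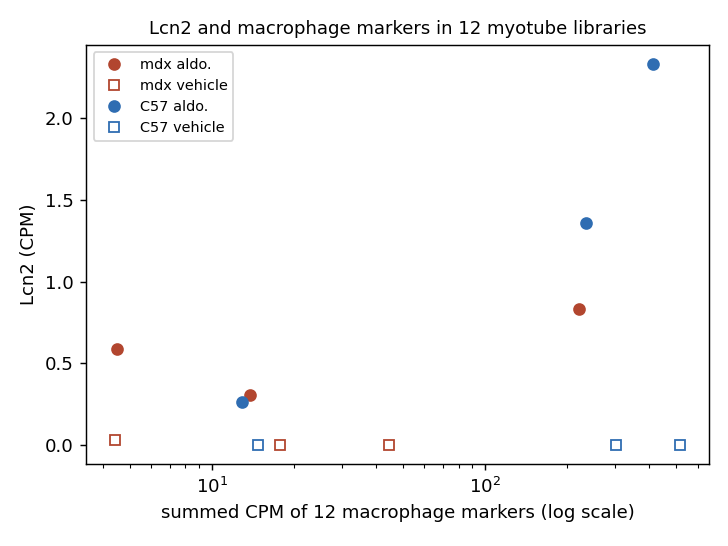
Lcn2 (CPM, linear axis) against the summed CPM of 12 macrophage markers (log axis) in the 12 myotube libraries, filled circles for aldosterone and open squares for vehicle. C57 vehicle libraries at 302 and 519 CPM of macrophage markers hold no Lcn2 reads, and mdx and C57 aldosterone libraries under 15 CPM hold some.

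Serpina3n, which blocks granzyme B and other proteases and is known to rise with corticosteroids, followed the direction of Lcn2 in myotubes but varied more between cultures. Serpina3n (ENSMUSG00000021091, chromosome 12, 104372988 to 104380588, plus strand, mm39) had 0.784, 11.4 and 4.59 CPM in mdx aldosterone myotubes, against 0.915, 2.47 and 0.611 CPM in mdx vehicle myotubes. It had 1.28, 4.59 and 2.99 CPM in C57 aldosterone myotubes, against 0.373, 0.441 and 0.145 CPM in C57 vehicle myotubes. The C57 groups do not overlap, whereas mdx culture 1 was slightly lower with aldosterone. The mean log2 change was 2.60 ± 0.64 (SE; adjusted p = 0.213, edgeR), and 2.44 ± 0.39 with the block (adjusted p = 0.00759). In C57 alone it was 3.10 (adjusted p = 0.74, with the block 0.0283) and in mdx 2.10 (adjusted p = 1, with the block 1.77 and 0.153). Without the block DESeq2 called Serpina3n in the mean (2.62, adjusted p = 0.000944) and in C57 (3.17, 0.0379), but not in mdx. Of the single-library omissions, unblocked edgeR called it in the mean only without mdx aldosterone replicate 1 (2.86, adjusted p = 0.0493). The blocked mean did not pass without C57 culture 2 (adjusted p = 0.0727), nor did C57 alone without culture 2 (0.236) or 3 (0.121), while mdx alone passed without culture 1 (0.000144). Culture 2 of mdx held the highest Serpina3n level and the highest summed fibroblast markers under both treatments, as did C57 culture 2 under vehicle. In C57 aldosterone myotubes culture 2 held the highest Serpina3n level and culture 3 the highest sum. The part of these markers in the Serpina3n levels was not tested. Serpina3g, a cathepsin inhibitor of the same cluster, had 1.57, 0.836 and 0.979 CPM in mdx aldosterone myotubes, against 1.42, 1.42 and 0.306 CPM in mdx vehicle myotubes. It had 0.32, 0.544 and 0.588 CPM in C57 aldosterone myotubes, against 0.373, 0.78 and 0.218 CPM in C57 vehicle myotubes, and the groups overlap in both genotypes. Genes of this cluster are near copies, and how the authors' counting divided reads between them is not stated, so their values are uncertain to that extent. Of the 9 other cluster genes Serpina3c alone passed the filter in myotubes, and it was not called in the mean (log2 change -0.22, edgeR adjusted p = 0.936, with the block 0.845). Serpina3h, Serpina3i, Serpina3b, Serpina3m and Serpina3a were read in some myotube libraries at no more than 0.898 CPM (Serpina3h), Serpina3f in fibroblasts only, and Serpina3j and Serpina3k had 0 reads in all 24 libraries.

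Cebpb, an intronless gene for a leucine-zipper factor of inflammation, passed with the block and not without it. It had 61.2, 60.5 and 54.2 CPM in mdx aldosterone myotubes, against 53.7, 57.3 and 38.9 CPM in mdx vehicle myotubes. It had 52.3, 47.4 and 49.4 CPM in C57 aldosterone myotubes, against 40.2, 45.7 and 43.7 CPM in C57 vehicle myotubes. All 6 cultures were higher with aldosterone, by a small amount, and the C57 groups do not overlap. The mean log2 change was 0.22 ± 0.09 (adjusted p = 0.596, edgeR), and 0.22 ± 0.05 with the block (adjusted p = 0.00966). The blocked call did not pass without C57 culture 1 (0.0549) or mdx culture 3 (0.0985).

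The other members did not pass in myotubes with edgeR on all 12 libraries. C3, the central complement component, had 3.14, 2.96 and 0.918 CPM in mdx aldosterone myotubes, against 2.03, 0.15 and 0.382 CPM in mdx vehicle myotubes. C3 had 2.35, 1.59 and 2.17 CPM in C57 aldosterone myotubes, against 0.793, 1.66 and 0.872 CPM in C57 vehicle myotubes, and the groups overlap in both genotypes (mean log2 change 1.05 ± 0.48, edgeR adjusted p = 0.674, with the block 0.0953). C3 passed in the mean with the block in DESeq2 (1.32, adjusted p = 0.0172), and with the edgeR block without C57 culture 2 (1.42, 0.0159) or mdx culture 1 (1.79, 0.00718). Ptx3, a pentraxin that binds microbes and matrix, had 9.8, 19.8 and 5.32 CPM in mdx aldosterone myotubes, against 11.7, 13.1 and 4.35 CPM in mdx vehicle myotubes. Ptx3 overlapped between treatments in C57 as well, with 5.23, 5.33 and 7.01 CPM in aldosterone and 3.59, 5.22 and 6.18 CPM in vehicle myotubes (mean log2 change 0.25 ± 0.34, edgeR adjusted p = 0.924). Saa3, a serum amyloid made outside the liver in mouse, and Hp, which binds free haemoglobin, were too low to pass the filter. Saa3 was read in mdx aldosterone culture 2 alone of the 6 mdx myotube libraries, at 0.643 CPM. In C57 it had 0, 0.35 and 0.271 CPM in aldosterone and 0.14, 0.305 and 0.0727 CPM in vehicle myotubes. Hp stayed between 0 and 0.193 CPM in all 12. Exact two-sided permutation tests within genotype over 400 arrangements, which cannot go below 0.005, gave p = 0.45 for Saa3 and 0.825 for Hp.

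**Figure D3:**
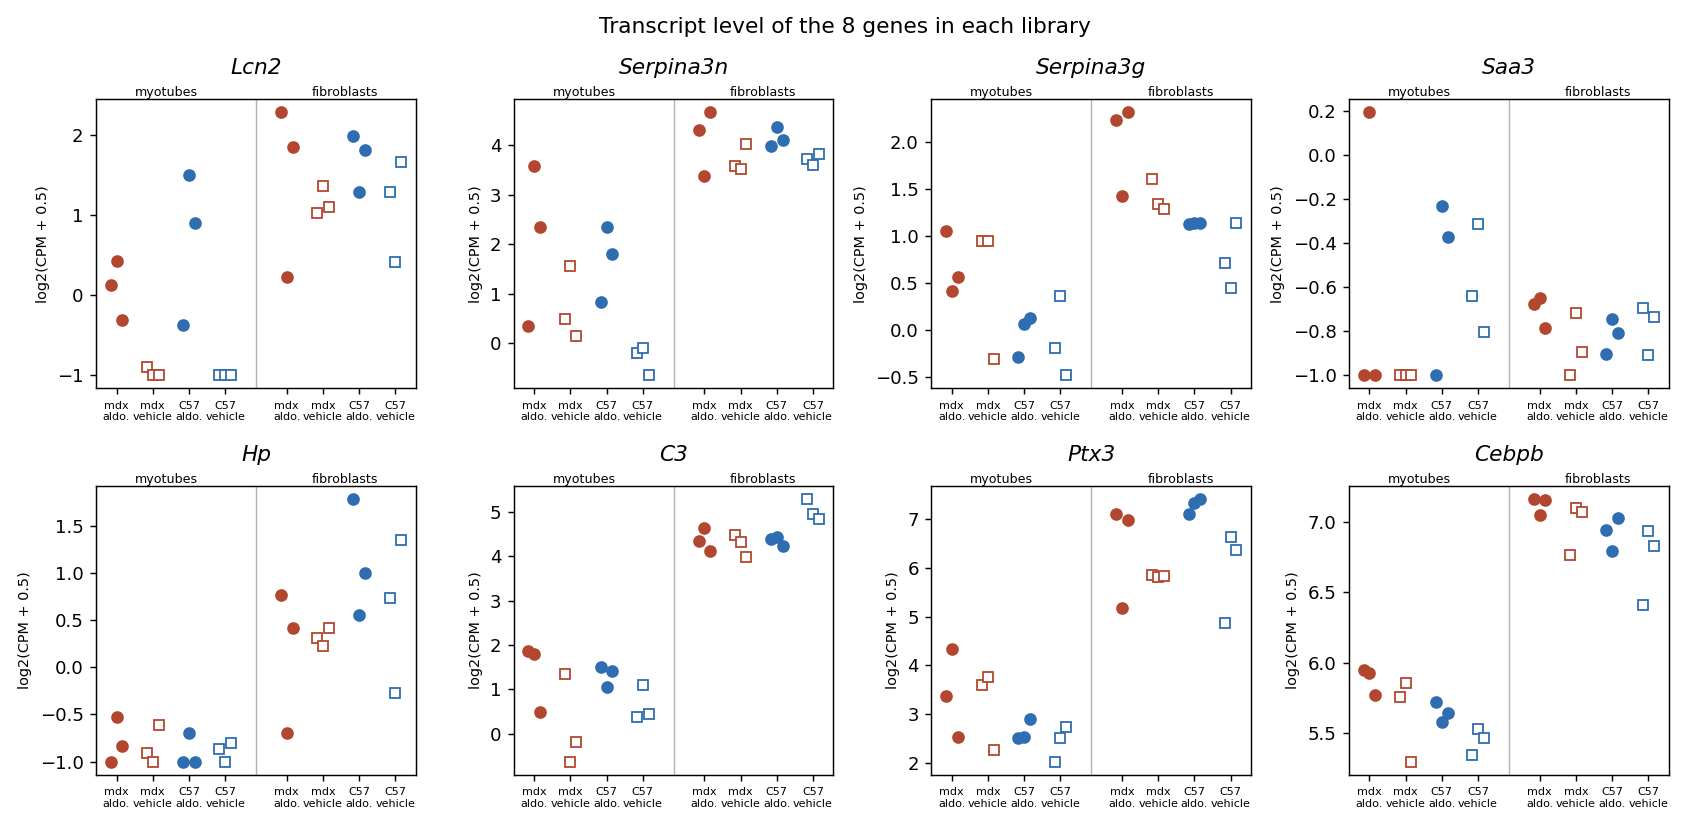
Levels of the 8 genes in the 24 libraries, as log2 of CPM plus 0.5, with myotubes left and fibroblasts right of the line, filled circles for aldosterone (or its medium), open squares for vehicle, red for mdx and blue for C57. Lcn2 lies at the lower limit of its axis in vehicle myotubes, and Hp lies near the limit of its own in all myotube libraries. Saa3 is highest in mdx aldosterone myotube replicate 2, at 0.643 CPM.

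Slc22a17, the gene of a cell-surface Lcn2 receptor, fell in myotubes. It had 95.8, 94.2 and 105 CPM in mdx aldosterone myotubes, against 124, 141 and 161 CPM in mdx vehicle myotubes. It had 124, 96.3 and 105 CPM in C57 aldosterone myotubes, against 170, 157 and 159 CPM in C57 vehicle myotubes. The groups do not overlap in either genotype, and the level was lower with aldosterone in all 6 cultures. The mean log2 change was -0.55 ± 0.08 (adjusted p = 0.0106, edgeR, and 6.84e-09 with the block), and 11 of 12 single-library omissions kept the call (0.00855 to 0.0565, lost without C57 aldosterone replicate 3). Of the 5 genes listed as Lcn2 receptors and partners, 3 were tested. The other two did not pass: the endocytic receptor Lrp2 (adjusted p = 0.991) and Mmp9, whose protease binds Lcn2 (0.972). Mc4r, a melanocortin receptor, reached at most 0.441 CPM in myotubes, and Lcn4 had 0 reads in all 24 libraries. In fibroblasts Slc22a17 was 33.7 to 46.4 CPM.

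The wider acute-phase list held 31 genes, of which 9 were tested in myotubes. Over all 15763 genes tested there, 1167 had an unadjusted p under 0.05 in the mean without the block in edgeR. Without the block edgeR called 0 in the mean (2 at an unadjusted p under 0.05) and DESeq2 called 1, Cp, and with the block 2 rose in edgeR, at a list median log2 change of 0.22 beside 0.01 over all genes: Cp, the copper carrier ceruloplasmin, and Lbp, which binds bacterial lipopolysaccharide. Cp averaged 14.4 ± 4.08 CPM in aldosterone and 8.65 ± 3.02 CPM in vehicle myotubes (SD, n = 6 each; log2 change 0.79, edgeR adjusted p = 0.167, and 0.78 and 2.01e-06 with the block; DESeq2 without the block 0.0084). Lbp averaged 0.664 ± 0.243 CPM in aldosterone and 0.243 ± 0.186 CPM in vehicle myotubes (SD, n = 6 each; with the block log2 1.55, edgeR adjusted p = 0.0291). Of the C/EBP family 5 of 6 were tested and Ddit3, which dimerises with other C/EBP factors, rose with the block (0.27, edgeR adjusted p = 0.000592). With the block Cebpd (0.26, 0.0717), Cebpz (0.16, 0.0513), Cebpg (0.11, 0.112) and Cebpa (-0.02, 0.926) did not pass. The counts that follow are read against the 8.96% of all genes called with the block. Of 21 tested IL-6 and STAT3 genes 2 (9.52%), close to that share, rose with the block, Junb (0.45, adjusted p 2.25e-05) and Il11ra1 (0.26, 0.000852). Of 25 tested IL-1, TNF and NF-kappaB genes 3 (12%), also close to it, rose with the block, Ccl2 (0.58, 0.000188), Vcam1 (0.24, 0.00281) and Tnfaip3 (0.17, 0.0376). Of 21 tested complement genes 5 (23.8%) were called higher in the mean with the block, among them Masp1, C1qa, C1qb and C1qc. C1qa, C1qb and C1qc are macrophage genes, and the macrophage sums above vary between cultures from 4.41 to 519 CPM. In C57, C1qb and C1qc were lower with aldosterone in every culture, and C1qa was lower in culture 2 and higher in the others. In mdx the rise of all 3 was largest in culture 2, where C1qc went from 2.54 CPM under vehicle to 12.3 CPM with aldosterone. In mdx culture 1 they had no reads under either treatment. The part of macrophage RNA in these calls was not tested. Of 3 tested pentraxins 2 fell with the block, Nptx1 and Nptxr. Without the block edgeR called none of these C/EBP, signalling, complement and pentraxin genes (1 C/EBP, 3 IL-6 and STAT3, 2 IL-1, TNF and NF-kappaB, 0 complement and 2 pentraxin genes at an unadjusted p under 0.05), and DESeq2 called Junb alone. These unadjusted counts are read against the 1167 of 15763 genes given above. Fkbp5, a steroid-induced immunophilin, rose in the mean (24.6 ± 1.36 CPM in aldosterone, 17.9 ± 1.77 CPM in vehicle myotubes, SD, n = 6 each; log2 change 0.46, edgeR adjusted p = 0.02, and 3.33e-05 with the block). Its unblocked call was lost in 7 of 12 single-library omissions. It was the one of 7 tested corticosteroid genes called by edgeR without the block, and DESeq2 also called Hsd11b1. With the block Hsd11b1, which reactivates glucocorticoids, and Hsp90aa1 rose and Nr3c2 fell. Of 7 tested genes of the fibrosis list, Spp1 (osteopontin) fell with and without the block, and Ccn2 was among those that rose with it. Median log2 changes of these lists with the block ran from -0.40 for pentraxins to 0.22 for acute-phase genes, beside 0.01 over all genes.

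In fibroblasts given the conditioned medium, none of the 7 members tested was called for aldosterone medium against vehicle medium, in C57 or mdx. edgeR called 0% of genes in C57 (1996 at an unadjusted p under 0.05, 74 with DESeq2) and 0% in mdx (818, and 0 with DESeq2). In the mean of both genotypes it called 0.012% of genes and 0 of 7 members, although Serpina3n, Serpina3g, C3 and Ptx3 had an unadjusted p under 0.05. DESeq2 called C3 in C57 and 0 members in mdx and in the mean. Ptx3 had 137, 35.5 and 126 CPM in mdx fibroblasts in aldosterone medium, against 57, 55.2 and 56.1 CPM in vehicle medium. It had 137, 161 and 169 CPM in C57 fibroblasts in aldosterone medium, against 28.6, 98.6 and 82.3 CPM in vehicle medium. In C57 the groups do not overlap, while in mdx culture 2 lies below all vehicle libraries and the other two lie above them. The log2 change was 1.16 ± 0.55 in C57 (edgeR adjusted p = 0.45), 0.81 ± 0.56 in mdx (0.915) and 0.98 ± 0.39 in the mean (0.301).

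Serpina3n had 19.3, 9.96 and 24.8 CPM in mdx fibroblasts in aldosterone medium, against 11.5, 10.9 and 15.7 CPM in vehicle medium. It had 15.4, 20.1 and 16.7 CPM in C57 fibroblasts in aldosterone medium, against 12.7, 11.6 and 13.7 CPM in vehicle medium. The C57 groups do not overlap and the mdx groups do (mean log2 change 0.47 ± 0.21, edgeR adjusted p = 0.328). C3 averaged slightly higher in aldosterone medium in mdx and lower in C57. It had 19.7, 24.4 and 17.0 CPM in mdx fibroblasts in aldosterone medium, against 21.8, 19.4 and 15.3 CPM in vehicle medium. C3 had 20.5, 21.2 and 18.3 CPM in C57 fibroblasts in aldosterone medium, against 38.5, 30.5 and 27.9 CPM in vehicle medium. The C57 groups do not overlap, with aldosterone medium lower, and the mdx groups do. The log2 change was -0.69 ± 0.16 in C57 (edgeR adjusted p = 0.327) and 0.10 ± 0.16 in mdx (0.946), and the difference of 0.80 ± 0.23 had an unadjusted p of 0.00433 and an adjusted p of 1. edgeR called that difference for 0% of genes (391 at an unadjusted p under 0.05, 0 with DESeq2). Lcn2 had 4.36, 0.664 and 3.11 CPM in mdx fibroblasts in aldosterone medium, against 1.54, 2.08 and 1.64 CPM in vehicle medium. It had 3.47, 1.94 and 3.02 CPM in C57 fibroblasts in aldosterone medium, against 1.94, 0.824 and 2.67 CPM in vehicle medium, and the groups overlap in both genotypes (mean log2 change 0.60 ± 0.42, edgeR adjusted p = 0.532). Serpina3g (0.59 ± 0.21, 0.23), Hp (0.23 ± 0.54, 0.871) and Cebpb (0.15 ± 0.09, 0.453) did not pass either, and Saa3 stayed between 0 and 0.137 CPM. Of the 10 other lists edgeR called no gene in this mean, and DESeq2 called Il11ra1, Tnfrsf1b and Spp1. In edgeR 8 of 20 IL-6 and STAT3 genes, 6 of 26 IL-1, TNF and NF-kappaB genes and 3 or fewer genes in each other list had an unadjusted p under 0.05, as had 2540 of all genes.

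3 fibroblast libraries, mdx vehicle 2 (42698139 counts), mdx aldosterone 2 (40756528) and C57 vehicle 1 (38764711), were deeper than the rest, whose highest total was 28391756. The 2 lowest Ptx3 values of the 12 libraries are among them, those of mdx aldosterone 2 and C57 vehicle 1. The same 2 libraries held the highest summed myotube markers of the fibroblast libraries, 168 and 130 CPM against 16.2 to 69.8 CPM in the other 10, and the lowest summed fibroblast markers, 16487 and 15622 CPM. mdx vehicle 2, as deep, had 23.6 CPM of myotube markers, 18174 CPM of fibroblast markers and 55.2 CPM of Ptx3. Leaving out these 3 libraries, an alternative added after the values were seen, also removes the 1 mdx aldosterone-medium library below the vehicle range. In that fit Ptx3 passed in the mean (0.99 ± 0.07, edgeR adjusted p = 3.96e-05, where 4.69% of genes were called), in C57 (0.78, 0.0072) and in mdx (1.20, 0.000287), and Serpina3n passed in the mean (0.56, 0.0215). The share of genes called was 0.466% in C57 and 1.4% in mdx. In the same fit Ptx3 was called lower in mdx than in C57 fibroblasts in vehicle medium (-0.67, 0.0117) while C3 lost its call there (-0.65, 0.0609), and Serpina3g was called higher in mdx in aldosterone medium (1.35, 0.0116). Between genotypes 1.32% of genes were called in vehicle medium and 2.16% in aldosterone medium. Without mdx aldosterone replicate 2 alone 2 members, Serpina3n (0.62, 0.00925) and Serpina3g (0.73, 0.0233), passed in the mean. In that fit 5.59% of genes were called, against 0.012% with all libraries. The part of depth and of the marker sums in these values was not tested.

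**Figure D4:**
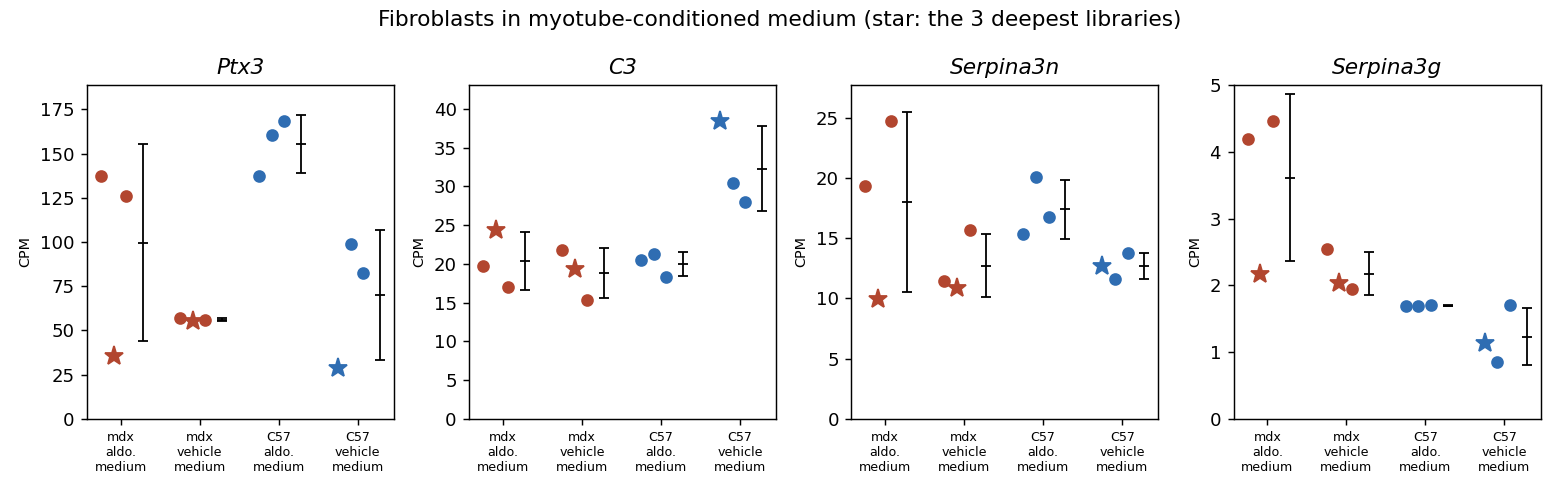
CPM of Ptx3, C3, Serpina3n and Serpina3g in fibroblasts in myotube-conditioned medium (linear axes from 0), each point a library, bars showing mean ± SD (n = 3) and stars the 3 deepest libraries. C57 Ptx3 in aldosterone medium lies from 137 to 169 CPM, above the vehicle medium values, and C57 C3 in vehicle medium lies from 27.9 to 38.5 CPM, above the other 3 groups.

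Between genotypes, C3 was lower in mdx than in C57 fibroblasts in vehicle medium. It averaged 18.8 ± 3.27 CPM in mdx and 32.3 ± 5.51 CPM in C57 (SD, n = 3 each), without overlap, a log2 change of -0.78 ± 0.16 (edgeR adjusted p = 0.0416). It was 1 of 7 members called, with 1.1% of genes called. The call was lost in 4 of 6 single-library omissions, of C57 vehicle replicate 1 or 2 or mdx vehicle replicate 2 or 3 (adjusted p 0.0244 to 0.185 over all 6). In aldosterone medium C3 did not pass (0.02 ± 0.16, adjusted p = 0.973), and 0 of 7 members were called, with 1.23% of genes called and DESeq2 calling Serpina3g. Serpina3g had 2.54, 2.03 and 1.94 CPM in mdx and 1.13, 0.857 and 1.7 CPM in C57 fibroblasts in vehicle medium, without overlap (0.82 ± 0.30, edgeR adjusted p = 0.249). In aldosterone medium it had 4.2, 2.17 and 4.47 CPM in mdx and 1.69, 1.69 and 1.7 CPM in C57 fibroblasts, again without overlap (1.07 ± 0.29, edgeR adjusted p = 0.0928). In myotubes 0 of 6 members were called between genotypes, with 0.362% of genes called under vehicle and 0.311% under aldosterone, and 0 members had an unadjusted p under 0.05 in edgeR or a call in DESeq2. Among complement regulators in fibroblasts, Cd59a, which blocks the membrane attack complex, was higher in mdx (22.8 CPM in mdx, 8.88 CPM in C57 vehicle medium; log2 1.37, edgeR adjusted p = 0.000149). Tlr4, the receptor for bacterial lipopolysaccharide, had 0 reads in all 12 C57 libraries and 21.8 to 30.4 CPM in the 12 mdx libraries. Every comparison of mdx with C57 here is therefore also one of cells with and without Tlr4 reads, and these cannot be told apart.

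Between cell types under vehicle, all 7 members tested were lower in myotubes than in fibroblasts in both genotypes. Most genes differ between these cells, with 74.7% called in C57 and 70.5% in mdx, in either direction. Of 17864 genes tested, 6781 were called lower in myotubes in C57 and 6262 in mdx. Saa3 was not tested. It averaged 0.173 CPM in C57 vehicle myotubes and 0.0837 CPM in C57 vehicle fibroblasts, and 0 and 0.0487 CPM in mdx. The log2 change in C57 and then mdx was -5.16 and -3.32 for Serpina3n (edgeR adjusted p 9.19e-06 and 0.000225). For C3 it was -4.78 and -4.11 (1.2e-08 and 1.6e-07). For Hp it was -5.01 and -3.66 (0.000457 and 0.00676). For Ptx3 it was -3.82 and -2.51 (1.34e-05 and 0.000549), and for Cebpb -1.30 and -1.34 (1.46e-08 and 1.3e-08). Serpina3g changed least among these, -1.29 and -0.97 (0.0138 and 0.0395), and each of its calls was lost in 3 of 6 single-library omissions. Lcn2, at 0 in C57 vehicle myotubes, had an adjusted p of 7.26e-05 and 0.000242. Over 6 libraries each, Hp held 5 reads in vehicle myotubes and 187 in vehicle fibroblasts, and Lcn2 held 1 and 355. Both passed the filter only through groups other than vehicle myotubes. The shares over all genes are therefore not a matched background for their calls. Fibroblasts had been in conditioned medium and myotubes had made it, so cell type and culture history cannot be told apart.

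Per kilobase of gene model, the order of the mean levels differed between treatments in myotubes. In aldosterone myotubes Cebpb had 36.0 CPM per kilobase, Ptx3 3.26, Serpina3n 2.07, C3 0.425, Serpina3g 0.383, Lcn2 0.361, Saa3 0.0808 and Hp 0.0385. In vehicle myotubes Cebpb had 31.0 CPM per kilobase, Ptx3 2.74, Serpina3n 0.400, Serpina3g 0.358, C3 0.191, Saa3 0.0331, Hp 0.0318 and Lcn2 0.00215. Lcn2 was thus last under vehicle and sixth under aldosterone. In fibroblasts the order was the same in both media. In aldosterone medium Cebpb had 86.4 CPM per kilobase, Ptx3 47.6, Serpina3n 8.58, C3 3.92, Serpina3g 1.26, Lcn2 1.05, Hp 0.784 and Saa3 0.0346. In vehicle medium Cebpb had 77.4 CPM per kilobase, Ptx3 23.5, Serpina3n 6.15, C3 4.97, Serpina3g 0.808, Lcn2 0.679, Hp 0.599 and Saa3 0.0254. Neighbours did not overlap over the 6 libraries for Cebpb and Ptx3 in all 4 orders, Ptx3 and Serpina3n in all but aldosterone myotubes, Serpina3n and C3 in aldosterone medium, and C3 and Serpina3g, and Hp and Saa3, in both media. All other neighbours overlapped.

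Over the 12 fibroblast libraries and 13467 protein-coding genes, the gene most like Ptx3 was Abi3bp, an extracellular matrix gene (Pearson r = 0.991 of log2 levels), then Serpinf1 (0.984) and Pcsk6 (0.983). The closest gene was Erp44 for Serpina3n (0.969), Itgb3bp for Cebpb (0.962), Mterf1b for C3 (0.938), Ephx1 for Serpina3g (0.938), Paqr8 for Hp (0.922) and the secreted chaperone clusterin, Clu, for Lcn2 (0.890). These libraries share depth differences, medium and cell preparation, and the values are the highest of many genes, so they are a description only.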

How the data were processed

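The authors counted reads per gene with featureCounts 1.5.0-p3 on mm39 (submitters' processing notes), and the deposited counts are raw. Libraries of poly(A) RNA did not keep strand, per the labels' protocols, so a gene and an antisense partner are counted together. The aligner was not given in the sources used here. Counts were analysed in R 4.3.3 with edgeR 4.0.16 (default filter, TMM scaling, robust quasi-likelihood test, Benjamini-Hochberg adjustment over all genes tested, called below 0.05). Within a cell type 12 libraries were fitted together (15763 genes kept in myotubes, 16671 in fibroblasts). Cell types were compared in 1 fit of 24 libraries (17864 genes). Standard errors are approximate, the log2 change over the root of its F value. CPM per kilobase divides by the deposited gene length. No member's values were pooled and no column was without a sample.

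Replicate numbers are shared between treatments, so pairing was checked by correlating, for each number, the deviations of both libraries from their group's mean. In myotubes this gave 0.725, 0.512 and 0.379 in C57 and 0.719, 0.675 and 0.578 in mdx. Libraries of different numbers gave -0.636 to 0.343 in C57 and -0.556 to -0.188 in mdx, so the numbers were taken to pair the cultures. In C57 cultures 2 and 3 are barely told apart: aldosterone 3 gave 0.343 with vehicle 2 and 0.379 with vehicle 3. In mdx fibroblasts the same numbers gave 0.224, 0.346 and 0.164, and in C57 fibroblasts 0.035, 0.173 and 0.153, where 1 pair fell under 0.1. This source of pairing is the data, not a label. No 2 libraries of a group agreed within sampling noise. DESeq2 1.42.0, other filters, single-library omissions and the block were the alternatives. The 8 members and the gene lists were chosen with earlier results of these data known. Named were all members, all receptor and C/EBP genes with tests, up to 4 called genes of each list by smallest adjusted p, and the genes most like a member. Some genes the rule names are not reported here. Further genes named were chosen after their values were seen. The script and tests were checked on simulated data with planted changes. There DESeq2 made more false calls than edgeR with the block, and edgeR without the block made the fewest. The limit set for false calls was raised after the DESeq2 result was seen, so that check was not passed as first set.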

Additional observations from a re-analysis of the deposited data

How the results depend on the processing

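Across alternatives, 174 of 220 counts of called members stayed within 1.5 times the reported count, and 583 of 678 alternatives for the 43 printed changes kept direction and side of the threshold. Shares of all genes called moved with the settings and stand beside the counts. In myotubes DESeq2 called 2 members in C57 (0.362% of genes) and 2 in the mean (1.07%). No count filter gave 1 in C57 (0.0802%), and a stricter filter, which removed Lcn2, gave 0 in the mean (0.225%). With the replicate block the counts were 2 in C57 (4.98%), 1 in mdx (2.33%) and 3 in the mean (8.96%). With the replicate block in DESeq2 they were 1 in C57 (3.58%) and 3 in the mean (5.74%), where Lcn2 has no adjusted p. The block without C57 culture 1, 2 or 3 gave 2, 1 and 1 in C57 (2.77%, 5.44% and 2.5%) and 2, 3 and 3 in the mean (6.74%, 10.9% and 5.69%). The block without mdx culture 1 or 3 gave 3 and 1 in mdx (1.87% and 0.907%). Without mdx culture 1, 2 or 3 it gave 4, 3 and 2 in the mean (6.98%, 5.12% and 4.5%). Single-library omissions gave 0 to 1 in the myotube mean, 0 to 2 in the fibroblast mean, and 0 to 1 for mdx against C57 fibroblasts in vehicle medium and in aldosterone medium. The 2 in the fibroblast mean came without mdx aldosterone replicate 2, with 5.59% of genes called. In fibroblasts DESeq2 called 1 in C57, with (2.45%) or without (0.626%) the replicate block, and 2 in the mean with it (4.27%). Without the 3 deepest libraries, chosen after seeing the data, the counts were 1 in C57 (0.466%), 1 in mdx (1.4%) and 2 in the mean (4.69%). For mdx against C57 in that fit, the count was 1 in aldosterone medium (2.16%). In vehicle medium it stayed at 1 (1.32%), but Ptx3 took the place of C3. For mdx against C57, DESeq2 (3.26%) and no count filter (1.41%) each gave 1 in aldosterone medium. In vehicle medium no count filter (1.36%) and a fit of only the groups compared (0.818%) each gave 0. Sign turned for C3 in mdx fibroblasts (-0.029 without the 3 deepest, -0.045 to 0.23 over single omissions), C3 for mdx against C57 in aldosterone medium (-0.13, and -0.13 to 0.13), Hp in the fibroblast mean (-0.095 to 0.55) and Ptx3 in the myotube mean (-0.069 to 0.42). None of these was called, and the causes were not tested. The replicate block changed no call for fibroblasts in edgeR. Of 52 other member changes, not printed, with 801 alternatives, 703 kept direction and side and 95 turned sign, 0 of them called on either side. Low counts limit Lcn2, Saa3 and Hp in myotubes.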
